A study of Mus musculus with 12 samples.

Results

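Endotoxin sensing in the liver was examined through 10 genes, Lbp, Cd14, Ly96, Tlr2, Tlr3, Tlr4, Tlr5, Myd88, Irak3 and Irak4. They were chosen by name, with earlier results of these data known. They are parts of endotoxin sensing and of the route from Toll-like receptors to the first kinases inside the cell. The table of 25611 genes holds all 10. All 10 passed the filter on low counts, which 13190 genes passed. The data are RNA sequencing of whole livers of male C57BL/6J mice aged 8 to 10 weeks, 12 in all and 4 per group. Sham mice had the abdomen opened without ligation or puncture, CLP mice were subjected to cecal ligation and puncture, a surgical model in which gut bacteria leak and cause sepsis, and CLP+DCA mice were CLP mice injected with dichloroacetate (DCA), a pan-PDK inhibitor, at 25 mg/kg. The injection was given at 24 hr and the livers of all 3 groups were taken 30 hr post-surgery, 6 hr after it. All mice received subcutaneous saline; what sham and CLP mice were injected with at 24 hr is not given in the sources used here.

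Endotoxin, the lipopolysaccharide of Gram-negative bacteria, is bound in plasma by LBP, a protein made by hepatocytes, and handed to CD14 and then to MD-2, the product of Ly96, which holds it on TLR4. TLR2 recognizes bacterial lipoproteins, TLR5 flagellin and TLR3 double-stranded RNA. TLR4, TLR2 and TLR5 signal through the adaptor MyD88 and the kinase IRAK4, and IRAK3, a pseudokinase also called IRAK-M, restrains that signal and is known from endotoxin tolerance.

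Each library held 24436513 to 44266819 reads on genes, and levels are given as CPM, the reads of a gene scaled to a common library size after TMM normalization, which corrects for a few abundant genes. Differences are log2 fold changes ± SE from edgeR, with p adjusted over all 13190 genes. Several reads can stem from 1 molecule, and counting error thus understates the error. Markers of hepatocytes, summed over 10 genes, were abundant in all 12 livers, at 66169 to 86334 CPM in sham, 30592 to 49139 CPM in CLP and 27876 to 62497 CPM in CLP+DCA. All 8 mice with CLP were below all sham mice. In CLP versus sham, 9 of the 10 markers had a negative log2 fold change, 1 of them past the threshold (1.14% of all genes were called lower). The median log2 fold change of the 10 markers was -0.45, and that of all genes tested was 0.02. The library of CLP+DCA replicate 3 stood apart from the other 3 of its group. It had 61.3 CPM summed over 10 neutrophil markers against 6.28 to 13.97 in the others, and the lowest sum of hepatocyte markers of all 12 libraries (27876 CPM, against 55076 to 62497 CPM in the other 3). The 30 acute phase genes took 17.3%, 20.3%, 36.2% and 15.8% of the reads in CLP+DCA, 21.8% to 36.9% in CLP and 11.7% to 13.3% in sham. Results that rest on this library are therefore given with and without it, a choice made after the values were seen. In whole liver, fewer cells of a type and less RNA per cell cannot be told apart.

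Of the 10 genes, Lbp was the only one past the threshold in CLP versus sham. It rose to 2.61 times the sham level. The threshold was passed by 2.78% of all genes tested. An unadjusted p under 0.05 was reached by 5 of the 10 (28.6% of all genes), and 5 of the 10, Lbp, Cd14, Tlr2, Myd88 and Irak3, were higher in every CLP mouse than in every sham mouse (12.2% of all genes). The median log2 fold change of the 10 genes was 0.49, and that of all genes tested was 0.02. The reads of CLP+DCA replicate 3 belong to neither group here and enter through the shared filter, scaling and estimate of the spread. Without CLP+DCA replicate 3, those 5 genes passed the threshold, all higher in CLP. Of the 13288 genes then tested, 23.8% passed, and 12.2% passed and were higher. None of the 10 passed in CLP+DCA versus sham, with or without that library (edgeR; of all genes, 0.0379% with it and 0.0828% without it). In that comparison 6 of the 10 had an unadjusted p under 0.05 (13% of all genes), and 3 were higher in every CLP+DCA mouse than in every sham mouse (4.78% of all genes). Nor did any of the 10 pass in CLP+DCA versus CLP with all libraries (0.00758% of all genes), none had an unadjusted p under 0.05 (10% of all genes), and in none were the groups apart (4.37% of all genes). Without CLP+DCA replicate 3, Irak3 passed (4.64% of all genes) and was lower in CLP+DCA, as 2.63% of all genes were. Both comparisons with sham rest on the same 4 sham mice.

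**Figure D1:**
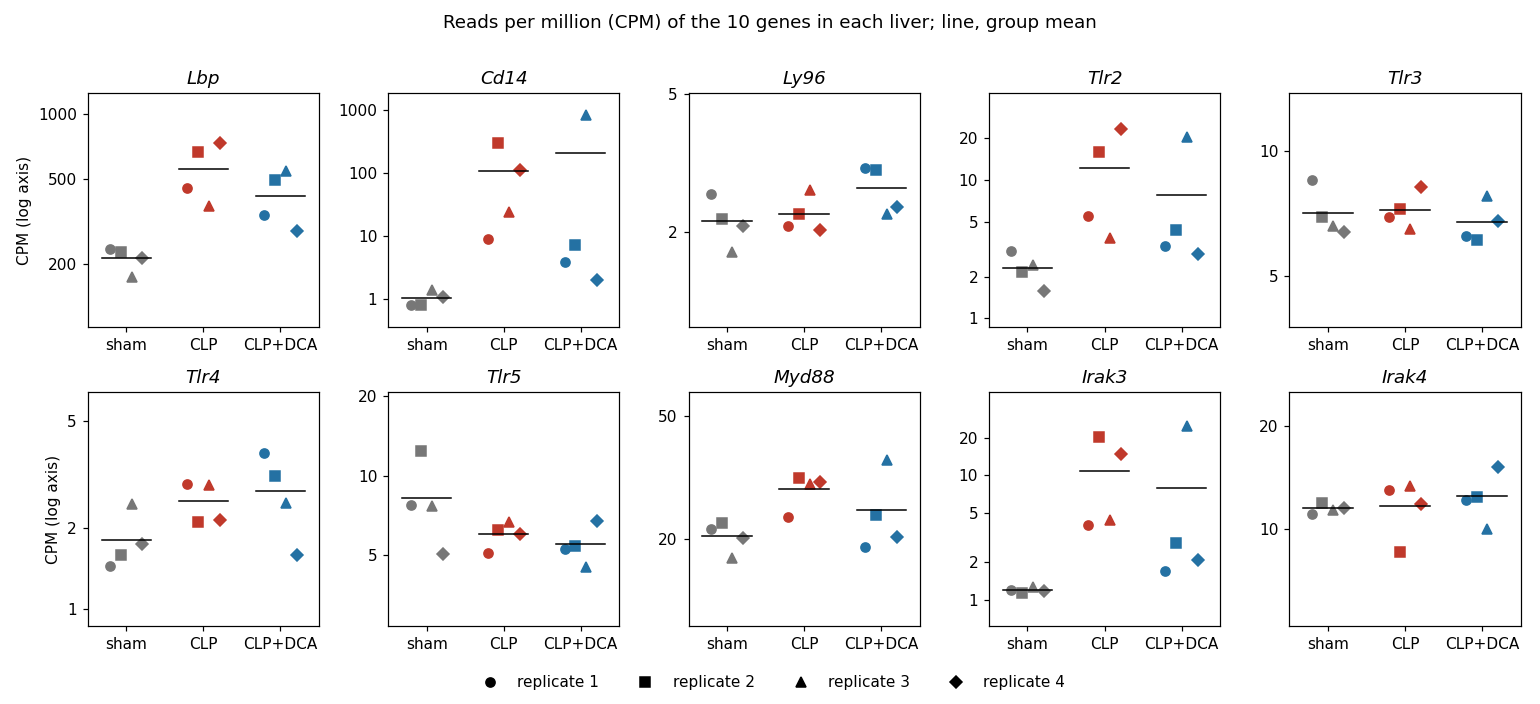
Level of the 10 genes in CPM (log axis, 1 panel per gene) in each of the 12 livers; the shape of a point gives the replicate number and the line the group mean. Cd14, Tlr2 and Irak3 spread widely within CLP, and in CLP+DCA replicate 3 (triangle) they lie far above the other 3 livers of the group, at 821, 20.5 and 25.1 CPM.

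Lbp encodes the plasma protein that extracts endotoxin from bacterial membranes. Its levels were 236, 229, 175 and 213 CPM in the 4 sham mice, 455, 667, 372 and 731 CPM in the CLP mice, and 339, 495, 545 and 287 CPM in the CLP+DCA mice. All 8 mice with CLP, treated or not, lay above all sham mice, while CLP and CLP+DCA overlapped. The sum of hepatocyte markers was lower in the same 8 mice, and its part in this difference was not tested. The gene (NCBI Gene 16803, mm10 chr2:158306493-158332852, plus strand) rose in CLP with a log2 fold change of 1.38 ± 0.25 (edgeR, adjusted p = 0.0275). Set against sham, CLP+DCA differed by 0.97 ± 0.25 (edgeR, adjusted p = 0.230), or by 0.81 without CLP+DCA replicate 3. CLP+DCA differed from CLP by -0.42 ± 0.25 (edgeR, adjusted p = 0.611), and -0.57 ± 0.25 without that library (edgeR, adjusted p = 0.156). The call in CLP versus sham was lost when sham replicate 1, 2, 3 or 4 or CLP replicate 2 or 4 was left out (edgeR, adjusted p between 0.0761 and 0.0862), with a log2 fold change between 1.22 and 1.43. The genes with the most similar course over the 12 libraries were Pfkfb2, Hp and Jade2, by the mean absolute difference of log2 CPM relative to sham (0.15, 0.15 and 0.16). Hp encodes haptoglobin, an acute phase protein of plasma.

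Cd14 encodes the co-receptor that passes endotoxin on to TLR4 and MD-2. In sham it was low, at 0.818, 0.816, 1.42 and 1.07 CPM (22 to 45 reads). CLP mice had 8.96, 294, 24.2 and 111 CPM, and CLP+DCA mice had 3.83, 7.15, 821 and 2.002 CPM. Every mouse with CLP, treated or not, was above every sham mouse, with a 32.8-fold range among the 4 CLP mice and a 410-fold range among the 4 CLP+DCA mice. The highest level of all 12 livers was in CLP+DCA replicate 3 (30359 reads), and the other 3 CLP+DCA mice were below all CLP mice. The log2 fold change in CLP versus sham was 6.72 ± 2.07 (edgeR, adjusted p = 0.0771), and 6.72 ± 1.17 without CLP+DCA replicate 3 (edgeR, adjusted p = 0.00628). Against sham, the value in CLP+DCA was 7.66 ± 2.14 (edgeR, adjusted p = 0.251) with all libraries and 2.06 ± 1.18 without that library (edgeR, adjusted p = 0.647). In CLP+DCA versus CLP the direction turned with that library, from 0.93 ± 1.58 with it (edgeR, adjusted p = 0.874) to -4.66 ± 1.15 without it (edgeR, adjusted p = 0.0517). Cd14 (NCBI Gene 12475) lies on the minus strand of chr18:36725064-36726815. Cdkn1a, a cell cycle inhibitor, was nearest to it in course, with a mean absolute difference of 0.55 on the log2 scale, followed by Serpina3i and Chil1.

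Ly96 and Tlr4 encode the receptor complex itself. Ly96 was at 2.56, 2.18, 1.74 and 2.08 CPM in sham, 2.07, 2.25, 2.63 and 2.02 CPM in CLP and 3.06, 3.02, 2.25 and 2.35 CPM in CLP+DCA. The groups overlapped throughout. Its log2 fold change in CLP versus sham was 0.07 ± 0.18 (edgeR, adjusted p = 0.801), which was -0.091 when libraries were scaled by their size alone. Tlr4 was at 1.45, 1.58, 2.47 and 1.75 CPM in sham, 2.92, 2.10, 2.90 and 2.15 CPM in CLP and 3.83, 3.12, 2.49 and 1.59 CPM in CLP+DCA. Sham replicate 3 reached into the range of the CLP mice, and the CLP+DCA mice spanned it. The log2 fold change of Tlr4 was 0.48 ± 0.27 in CLP versus sham (edgeR, adjusted p = 0.248) and 0.60 ± 0.27 in CLP+DCA versus sham (edgeR, adjusted p = 0.377), or 0.65 ± 0.29 without CLP+DCA replicate 3 (edgeR, adjusted p = 0.519). Both genes rested on few reads, 39 to 127 for Tlr4 and 45 to 109 for Ly96 per library. Nearest in course to Tlr4 were Tmsb4x, Hcls1 and Cotl1 (mean absolute difference 0.12, 0.13 and 0.14), and to Ly96 Fuca2, Tacc3 and Rbm48 (0.11, 0.12 and 0.12). Ly96 (NCBI Gene 17087) is on the plus strand of chr1:16688456-16709605 and Tlr4 (NCBI Gene 21898) on that of chr4:66827551-66846581.

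The balance between the co-receptor and the receptor was compared within each library. The log2 ratio of Cd14 to Tlr4 was between -0.91 and -0.68 in the 4 sham mice. It was 1.59, 7.08, 3.03 and 5.65 in CLP and 0.00, 1.18, 8.33 and 0.32 in CLP+DCA. All 8 mice with CLP were above the sham mice. The mean differed by 5.13 between CLP and sham and by 3.24 between CLP+DCA and sham (exact permutation test, two-sided, p = 0.0286 in both, the smallest p that 4 against 4 mice allow, and 0.0643 adjusted over 9 ratio tests). Between CLP+DCA and CLP it differed by -1.88 (exact permutation test, p = 0.371, adjusted p = 0.478). CLP+DCA replicate 3 moved both values of CLP+DCA: without it the mean differed by 1.29 from sham (exact permutation test, p = 0.0286, adjusted p = 0.0643) and by -3.84 from CLP (exact permutation test, p = 0.0571, adjusted p = 0.103). Without CLP replicate 2 the difference from CLP was -0.97. The log2 ratio of Ly96 to Tlr4 overlapped between all groups, and its means differed by -0.40 between CLP and sham (exact permutation test, p = 0.286, adjusted p = 0.429). That difference was -0.22 without sham replicate 1 and -0.65 without sham replicate 3.

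Among the other receptors, the groups of Tlr2 were apart in CLP versus sham. Tlr2, the lipoprotein receptor, was at 3.09, 2.18, 2.44 and 1.59 CPM in sham, 5.53, 16.0, 3.84 and 23.2 CPM in CLP and 3.32, 4.33, 20.5 and 2.92 CPM in CLP+DCA. All CLP mice were above all sham mice. In CLP+DCA only replicates 1, 2 and 3 were, and the difference rested on replicate 3. The log2 fold change in CLP versus sham was 2.38 ± 0.73 (edgeR, adjusted p = 0.0771), and 2.38 ± 0.53 without CLP+DCA replicate 3 (edgeR, adjusted p = 0.0133). Tlr2 also passed without CLP replicate 3, at 2.68 (edgeR, adjusted p = 0.0486). For CLP+DCA versus sham it was 1.75 ± 0.72 (edgeR, adjusted p = 0.341), and 0.61 ± 0.57 without that library (edgeR, adjusted p = 0.808). The value for CLP+DCA versus CLP was -0.62 ± 0.68 (edgeR, adjusted p = 0.792), and -1.77 ± 0.57 without that library (edgeR, adjusted p = 0.0857). Col4a1 and Aldh18a1 were nearest in course, at 0.29 and 0.30.

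Tlr3, the receptor for double-stranded RNA, stayed within 6.11 to 8.51 CPM in all 12 livers. It had 8.51, 6.95, 6.61 and 6.37 CPM in sham, 6.95, 7.27, 6.50 and 8.21 CPM in CLP, and 6.25, 6.11, 7.82 and 6.77 CPM in CLP+DCA. The log2 fold change in CLP versus sham was 0.02 ± 0.13 (edgeR, adjusted p = 0.913), and -0.16 with library size alone. Tlr5, the flagellin receptor, was at 7.73, 12.3, 7.62 and 5.03 CPM in sham, 5.07, 6.22, 6.64 and 6.01 CPM in CLP and 5.23, 5.41, 4.49 and 6.74 CPM in CLP+DCA. Its highest and its second highest value were both in sham, while sham replicate 4 was below all 4 CLP mice. Its log2 fold change was -0.45 ± 0.23 in CLP versus sham (edgeR, adjusted p = 0.213) and -0.58 ± 0.23 in CLP+DCA versus sham (edgeR, adjusted p = 0.328), or -0.50 ± 0.24 without CLP+DCA replicate 3 (edgeR, adjusted p = 0.564). Without sham replicate 2 the values were -0.18 (edgeR, adjusted p = 0.552) and -0.31 (edgeR, adjusted p = 0.606). Of the 10 genes it was the only one with a negative value in CLP versus sham. Nearest in course were Ncbp3, Sfmbt1 and Tlk1 to Tlr3 (0.06, 0.07 and 0.07), and Slc13a4, Nr2f2 and Pdgfa to Tlr5 (0.16, 0.18 and 0.18).

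Promoter stretches are shown because NF-kappaB stands at the end of this route and the genes differ in how their RNA moved. RefSeq windows of 300 bases (250 before and 50 after an annotated start, GRCm38.p6) were at hand for 6 of the 10 genes, Tlr2, Tlr3, Tlr5, Myd88, Irak3 and Irak4, with 2 starts for Irak3. Both strands were searched for the kappaB consensus of NF-kappaB, which 8.46% of all 32851 windows hold, for the C/EBP motif TTGCNNAA (10.8%), the STAT motif TTCNNNGAA (8.3%), the AP-1 motif TGANTCA (7.81%) and the interferon response element (3.44%). Stretches of 30 bases on the strand of the gene follow, with the match in capitals. Tlr2 (chr3:83836272-83841608, minus strand, NCBI Gene 24088) holds the kappaB consensus at -173 and at -8 from its start, counted from 0. The first stretch is at chr3:83841762-83841791, where a further match lies 1 base on, the second at chr3:83841597-83841626. Tlr3 (chr8:45395665-45410619, minus strand, NCBI Gene 142980) holds it at -211, in chr8:45410572-45410601; the RefSeq start from which this counts lies inside the gene as the table gives it, and so does the stretch.
Tlr2, upstream match: taggacacctGGGGAATTCCcacacggagc
Tlr2, match at the start site: ccctgacctgGGGACATCCCcttccctcac
Tlr3: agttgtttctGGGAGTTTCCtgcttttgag

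Both genes hold the same consensus, and their RNA differed in course. The values of Tlr2 ranged 6.04-fold within CLP, and those of Tlr3 ranged 1.26-fold. Tlr3 also has a C/EBP match. None of the 5 motifs matched the windows of Tlr5 (chr1:182954788-182976044, plus strand, NCBI Gene 53791) and Irak4. A match describes letters and does not show that a factor binds there.

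Inside the cell, the signal passes through MyD88, an adaptor, to IRAK4. Myd88 was at 21.6, 22.6, 17.3 and 20.1 CPM in sham, 23.6, 31.6, 30.2 and 30.5 CPM in CLP and 18.9, 23.98, 36.04 and 20.3 CPM in CLP+DCA. All CLP mice were above all sham mice by a small margin, and the CLP+DCA mice overlapped both groups. The log2 fold change in CLP versus sham was 0.50 ± 0.19 (edgeR, adjusted p = 0.112), and 0.50 ± 0.12 without CLP+DCA replicate 3 (edgeR, adjusted p = 0.0133). The value for CLP+DCA versus sham was 0.28 ± 0.19 (edgeR, adjusted p = 0.517), and 0.05 ± 0.13 without that library (edgeR, adjusted p = 0.959). Compared with CLP, the value in CLP+DCA was -0.22 ± 0.19 (edgeR, adjusted p = 0.718), and -0.46 ± 0.13 without that library (edgeR, adjusted p = 0.0582). Irak4 was at 11.1, 11.9, 11.4 and 11.5 CPM in sham, 12.99, 8.61, 13.4 and 11.9 CPM in CLP and 12.2, 12.5, 10.01 and 15.2 CPM in CLP+DCA. Its 3 groups overlapped, with a log2 fold change in CLP versus sham of 0.03 ± 0.15 (edgeR, adjusted p = 0.904) that was -0.13 with library size alone. Exons of Myd88 share 11.3% of their bases with Acaa1a on the opposite strand, those of Irak4 7.87% with Twf1 and those of Tlr3 7.32% with Gm45542. The strand setting of the counting is not given in the sources used here, and without strand, reads of such partners cannot be told apart. The Myd88 window (gene at chr9:119335988-119340040, minus strand, NCBI Gene 17874) holds the STAT motif at -46 and the interferon response element at -40, which overlap, counted from the RefSeq start.
Myd88, STAT motif, chr9:119340045-119340074: agggcggagcTTCTCGGAAagcgaaagaag
Myd88, interferon response element, chr9:119340039-119340068: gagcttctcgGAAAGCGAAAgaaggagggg

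Irak3, which encodes the restraining pseudokinase, was at 1.19, 1.14, 1.27 and 1.18 CPM in sham, 4.01, 20.4, 4.35 and 14.9 CPM in CLP and 1.69, 2.85, 25.1 and 2.10 CPM in CLP+DCA. The sham mice differed little among themselves (SD 0.0535 CPM). All 8 mice with CLP were above them, and 3 of the 4 CLP+DCA mice lay between sham and CLP without overlap. The log2 fold change in CLP versus sham was 3.18 ± 0.92 (edgeR, adjusted p = 0.0710), and 3.17 ± 0.53 without CLP+DCA replicate 3 (edgeR, adjusted p = 0.00487). CLP+DCA versus sham gave 2.74 ± 0.91 (edgeR, adjusted p = 0.290), and 0.89 ± 0.57 without that library (edgeR, adjusted p = 0.686). Between CLP+DCA and CLP it was -0.44 ± 0.82 (edgeR, adjusted p = 0.883) with all libraries, and -2.28 ± 0.56 without that library, which passed the threshold (edgeR, adjusted p = 0.0463). Steap4, Alpk1 and Piwil2 were nearest in course (0.26, 0.26 and 0.30). Exons of Irak3 (chr10:120141654-120201537, minus strand, NCBI Gene 73914) share 5.22% of their bases with Tmbim4 on the opposite strand. Both Irak3 starts lie before the gene as the table gives it. The second has a C/EBP match on the other strand at 8, in chr10:120202104-120202133.
Irak3, C/EBP motif: cctaaacttcaTTTTGCAAactcgttgaag

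Irak3 was also set against Irak4 (chr15:94543660-94568316, plus strand, NCBI Gene 266632) within each library. The log2 ratio of Irak3 to Irak4 was -3.16, -3.32, -3.11 and -3.23 in sham. It was -1.68, 1.24, -1.61 and 0.32 in CLP and -2.81, -2.10, 1.32 and -2.82 in CLP+DCA. Irak3 reads outnumbered Irak4 reads in 3 of the 12 livers, CLP replicates 2 and 4 and CLP+DCA replicate 3. The means differed by 2.77 between CLP and sham and by 1.6 between CLP+DCA and sham (exact permutation test, two-sided, p = 0.0286 in both, adjusted p = 0.0643), and by -1.17 between CLP+DCA and CLP (exact permutation test, p = 0.286, adjusted p = 0.429). Without CLP+DCA replicate 3 the mean of CLP+DCA differed by 0.63 from sham (exact permutation test, p = 0.0286, adjusted p = 0.0643) and by -2.14 from CLP (exact permutation test, p = 0.0857, adjusted p = 0.129). Without CLP replicate 2 the difference from CLP was -0.61.

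**Figure D2:**
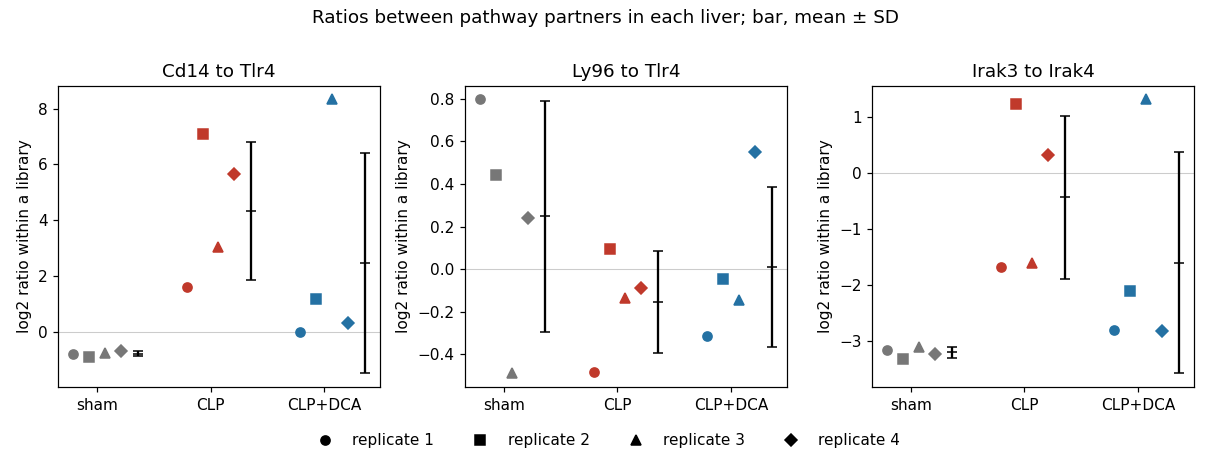
Log2 ratios of Cd14 to Tlr4, Ly96 to Tlr4 and Irak3 to Irak4 within each of the 12 libraries (1 panel per ratio); points are livers, with the shape giving the replicate number, and bars the mean ± SD of 4 mice. The ratios with Cd14 and Irak3 are higher in all 8 mice with CLP than in sham, while that of Ly96 to Tlr4 overlaps between groups.

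Per kilobase of exons, the levels in sham fell into an order with Lbp at the top. Lbp stood at 44.1 ± 5.63 CPM per kb (SD, n = 4), followed by Myd88 at 7.92 ± 0.891 CPM per kb. Neither range met a neighbour. Irak4 (2.29 CPM per kb), Ly96 (2.10), Tlr5 (1.71) and Tlr3 (1.37) came next, and the neighbours among these 4 overlapped in range. Tlr2 (0.770 CPM per kb) overlapped Cd14 (0.595), and Tlr4 (0.326) overlapped Irak3 (0.324). In CLP, Cd14 moved to the second place at 63.2 ± 75.6 CPM per kb (SD, n = 4), with a range of 5.17 to 170, whereas Tlr4 was last at 0.454 ± 0.0814. In CLP+DCA, Cd14 ranged from 1.16 to 474 CPM per kb. Lengths are exon unions of GENCODE, whereas the annotation behind the counts is not named, so that the order is approximate.

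**Figure D3:**
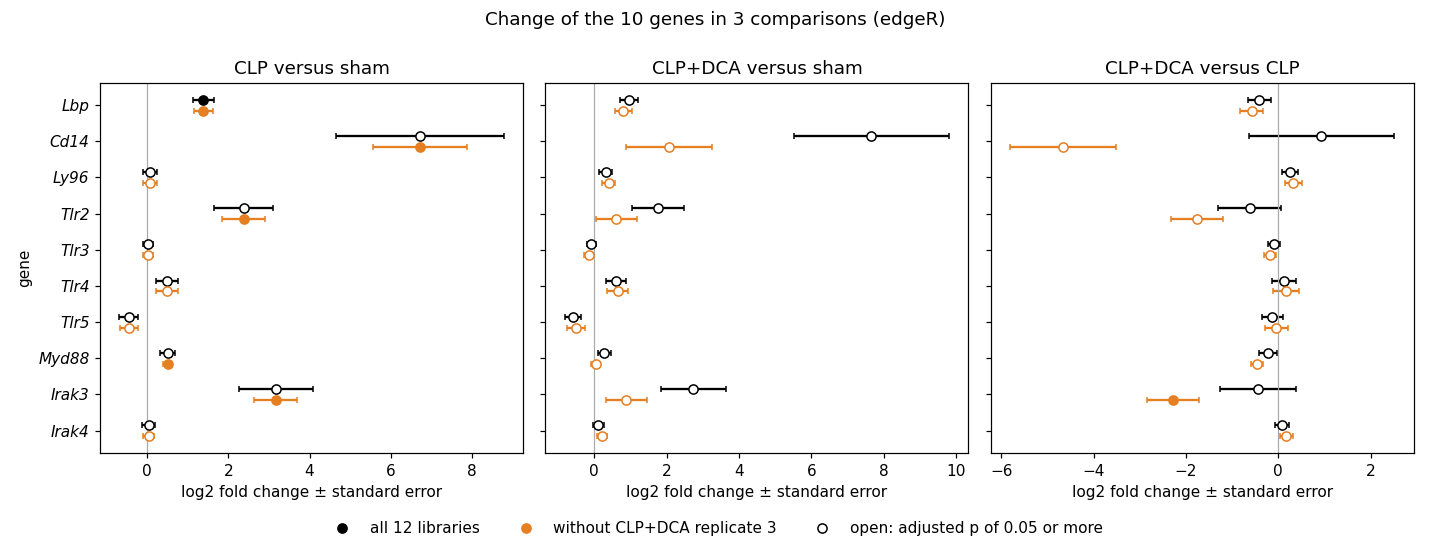
Log2 fold change ± SE (x axis) of the 10 genes (y axis) in the 3 comparisons, by edgeR with all 12 libraries (black) and without CLP+DCA replicate 3 (orange); filled points have an adjusted p under 0.05. The estimates of CLP versus sham are nearly the same in both fits, with shorter bars in the second for all genes but Tlr4, and Cd14 in CLP+DCA versus CLP changes sign from 0.93 to -4.66.

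Markers of other cell types moved with some of these genes. The 10 neutrophil markers summed to 6.23 to 8.96 CPM in sham, with Camp at 0 reads in all 4 libraries and Ngp and Ltf in 3, and to 31.8, 45.9, 37.1 and 34.8 CPM in the 4 CLP mice, none at 0. In CLP+DCA the sum was 6.28, 13.97, 61.3 and 6.71 CPM. The defining marker Ly6g did not follow the sum, with 24 to 30 reads in sham and 6 to 29 in CLP. In CLP the sum varied little, whereas Cd14 varied 32.8-fold, Tlr2 6.04-fold and Irak3 5.10-fold among the same mice. The 7 monocyte markers other than Fn1, which hepatocytes also make, summed to 5.27 to 7.21 CPM in sham, 11.4 to 17.9 CPM in CLP, and 9.44, 10.2, 22.4 and 6.80 CPM in CLP+DCA. With Fn1 the sum was 1740 to 2200 CPM in sham, 2874 to 5727 CPM in CLP and 2533, 2580, 5531 and 2667 CPM in CLP+DCA. The 10 markers of Kupffer cells and macrophages summed to 206 to 333 CPM in sham and 253 to 366 CPM in CLP. In CLP+DCA replicate 3, the liver with the most Cd14, they were lowest of all, at 187 CPM against 266 to 484 CPM in the other CLP+DCA mice. The 8 endothelial markers lay at 108 to 140 CPM in sham, 129 to 163 CPM in CLP and 103 to 154 CPM in CLP+DCA. The 6 cholangiocyte markers summed to 34.7 to 44.1 CPM in sham, 62.3, 91.7, 70.7 and 96.4 CPM in CLP and 49.3, 66.4, 213 and 38.8 CPM in CLP+DCA, highest in CLP+DCA replicate 3 as Cd14 was. The 8 stellate cell markers lay at 34.8 to 49.3 CPM in sham, 73.5, 54.3, 288 and 33.7 CPM in CLP and 37.0, 40.3, 85.6 and 38.8 CPM in CLP+DCA. The sum of 9 lymphocyte markers went the other way, at 2.13 to 4.24 CPM in sham, 0.538 to 1.74 CPM in CLP, and 3.13, 2.92, 0.866 and 2.07 CPM in CLP+DCA. It rested on few reads, with 4 of the 9 at 0 reads in CLP replicate 2. Only 4 of the 9 passed the filter on low counts, 3 lower and 1 higher in CLP versus sham, none called (edgeR). Without CLP+DCA replicate 3, 6 passed the filter and 4 were called lower (edgeR, 11.5% of all genes). The part of these cell types in the levels of the 10 genes was not tested.

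The wider pathway was described with 81 further genes in 7 lists, 67 of them past the filter. Of the 67, 7 rose in CLP compared with sham and 1 fell (edgeR; 1.64% and 1.14% of all genes), and 24 were higher and 4 lower at an unadjusted p under 0.05 (15.5% and 13.1% of all genes). Without CLP+DCA replicate 3, 21 were called higher and 3 lower (12.2% and 11.5% of all genes). None was called in CLP+DCA versus sham, with or without that library (edgeR), and 15 were higher and 1 lower at an unadjusted p under 0.05 (8.14% and 4.85% of all genes). In CLP+DCA versus CLP none was called with all libraries, 4 being higher and 4 lower at an unadjusted p under 0.05 (edgeR; 5.06% and 4.94% of all genes), and 2 were called higher and 8 lower without that library (2.01% and 2.63% of all genes).

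Of 8 other Toll-like receptors, 6 passed the filter and none was called in CLP versus sham (edgeR). An unadjusted p under 0.05 was reached by 1 of the 6 (28.6% of all genes), and the median log2 fold change of the 6 was 0.40. The smallest p was that of Tlr6, the partner of TLR2, at 0.86 ± 0.26 (edgeR, adjusted p = 0.0756). Of 10 adaptors, chaperones and accessory proteins, none was called (edgeR), and 3 had an unadjusted p under 0.05 (28.6% of all genes). Ticam1, which encodes TRIF, the adaptor of TLR3 and TLR4, had the smallest p, with a log2 fold change of 0.58 ± 0.17 (edgeR, adjusted p = 0.0724).

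Of 16 kinases and ubiquitin ligases that act after MyD88 and TRIF, 1 was called in CLP versus sham (2.78% of all genes). The median log2 fold change was 0.09. Traf3, a ubiquitin ligase shared by both branches, rose by 0.96 ± 0.23 (edgeR, adjusted p = 0.0479). Its levels were 11.2 to 12.9 CPM in sham, 16.4 to 30.7 CPM in CLP and 15.3 to 27.6 CPM in CLP+DCA.

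Of 12 inhibitors of the pathway, 11 passed the filter, 1 rose and 1 fell (1.64% and 1.14% of all genes). Tnip1, a partner of the ubiquitin-editing enzyme A20, rose by 0.64 ± 0.14 (edgeR, adjusted p = 0.0452). Dusp1, the phosphatase that turns off p38 and JNK, fell by 1.19 on the log2 scale (edgeR, SE 0.25, adjusted p = 0.0390). Dusp1 stood at 30.4, 26.6, 25.4 and 16.0 CPM in sham, 9.88, 12.4, 12.7 and 8.08 CPM in CLP and 36.7, 55.5, 27.3 and 33.2 CPM in CLP+DCA. CLP lay below both other groups without overlap. Dusp1 in CLP+DCA versus CLP had a log2 fold change of 1.82 ± 0.25 (edgeR, adjusted p = 0.0718), and 1.95 without CLP+DCA replicate 3, where it passed the threshold (edgeR, adjusted p = 0.00779). Here, unlike in Cd14, Tlr2 and Irak3, CLP+DCA replicate 3 was the lowest of its group.

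Of 11 further genes for binding, uptake or breakdown of endotoxin, 9 passed the filter and none was called (edgeR). An unadjusted p under 0.05 was reached by 4 of the 9 (28.6% of all genes), and the median log2 fold change of the 9 was 0.66. Marco, a scavenger receptor of macrophages, had the smallest p, with a log2 fold change of 2.56 ± 0.65 (edgeR, adjusted p = 0.0554). Bpi had no read in any of the 12 libraries.

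Of 8 receptors, antagonists and binding proteins of the IL-1 family, 6 passed the filter and 1 was called (2.78% of all genes). Il18bp, which encodes the protein that captures IL-18, rose by 1.30 ± 0.27 (edgeR, adjusted p = 0.0403), and the median log2 fold change of the 6 was 1.52. Il18bp levels were 14.2 to 18.7 CPM in sham, 26.5 to 58.2 CPM in CLP and 22.5 to 53.6 CPM in CLP+DCA.

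Of 16 cytokines and other early products of TLR signalling, 9 passed the filter and 4 rose (1.64% of all genes). The median log2 fold change of the 9 was 1.07. Cxcl1, a chemokine for neutrophils, rose by 2.23 ± 0.27 (edgeR, adjusted p = 0.00845), from 59.95, 70.4, 49.7 and 62.5 CPM in sham to 231, 340, 194 and 376 CPM in CLP. CLP+DCA mice had 74.6, 63.6, 135 and 92.1 CPM of Cxcl1, all below the CLP mice. The difference between CLP+DCA and CLP was -1.64 ± 0.26 on the log2 scale (edgeR, adjusted p = 0.0967), and -1.89 without CLP+DCA replicate 3, which passed the threshold (edgeR, adjusted p = 0.00779). Cxcl2, a related chemokine, rose by 3.73 ± 0.87 (edgeR, adjusted p = 0.0475) at levels of at most 4.04 CPM. Il1b, the cytokine IL-1 beta, rose by 1.36 ± 0.31 (edgeR, adjusted p = 0.0463), and Nfkbiz, which encodes a nuclear partner of NF-kappaB, by 1.5 ± 0.34 (edgeR, adjusted p = 0.0450). Ifnb1 had no read in any library.

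**Figure D4:**
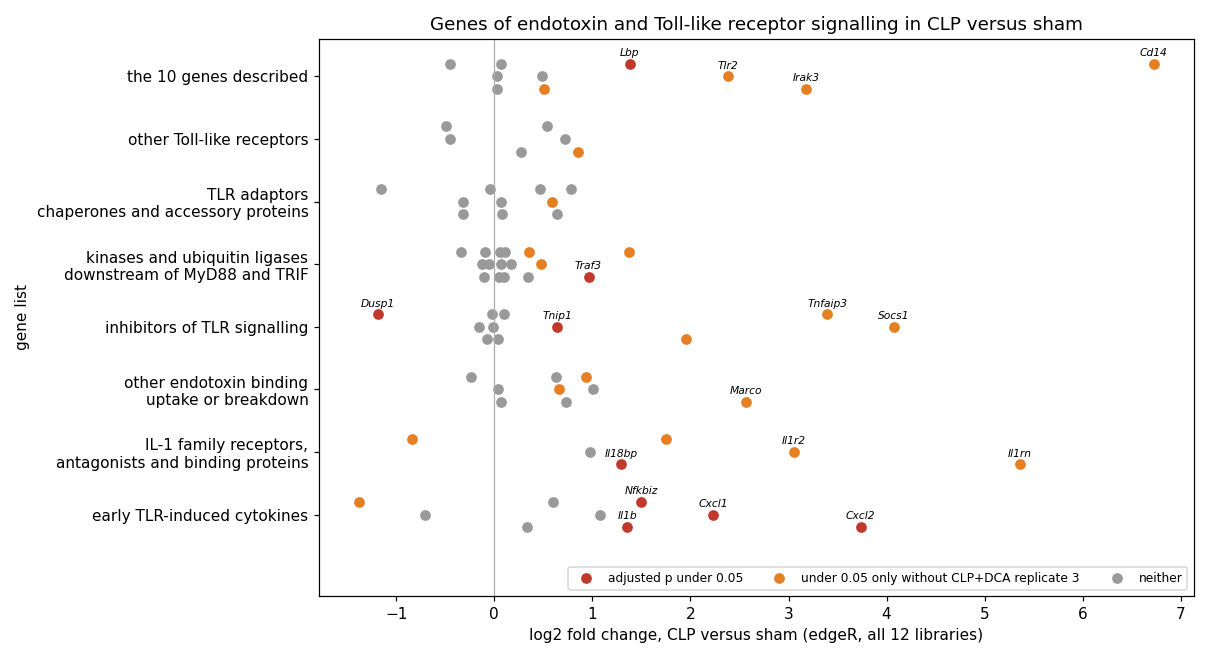
Log2 fold change in CLP versus sham (x axis) of the 10 genes and of the 67 genes of the 7 pathway lists that passed the filter (y axis, 1 row of points per list); red points have an adjusted p under 0.05 with all 12 libraries, orange points only without CLP+DCA replicate 3, and grey points in neither fit. Of the 67 genes, 7 rose and 1, Dusp1, fell, and Cd14 lies farthest to the right at 6.72.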

How the data were processed

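The authors prepared poly(A)-enriched libraries, sequenced paired ends, aligned them to mm10 with STAR 2.5 and counted reads per gene with featureCounts (Subread 1.5.0-p1); they deposited these counts without normalization. The gene annotation and strand setting are not given in the sources used here. All columns of the table were mapped to a mouse and its group by label. In R 4.3.3, genes were filtered with filterByExpr of edgeR 4.0.16 (minimum count 10), normalized by TMM, and tested by robust quasi-likelihood in a single fit of 12 mice, at a Benjamini-Hochberg FDR of 0.05 over 13190 genes; the SE is the log2 fold change divided by the square root of F. Ratios were taken between log2 CPM (prior count 2). Alternatives were DESeq2 1.42.0, voom of limma 3.58.1, other scalings and filters, a replicate block and leaving out each mouse. The genes and lists were chosen with earlier results of these data known. Named are the 10 genes, of each list every gene past the threshold in any comparison with all libraries, otherwise that with the smallest p in CLP versus sham, and the 3 nearest genes in course, of which 1 is not reported here. The test was checked on simulated counts, with the same relative spread for all genes and no library set apart. That check does not cover a library such as CLP+DCA replicate 3. No 2 libraries of a group agreed within sampling noise.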

Additional observations from a re-analysis of the deposited data

Results flagged for a closer look

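Of 30 groups of 4 mice (10 genes in 3 groups), 3 held a library set apart in CPM. Its gap to the nearest neighbour took more of the group's range than Dixon's test allows for 4 values. Chance alone passes that limit in about 1 of 20 groups if values are normally distributed, which was not checked for CPM. All 3 were CLP+DCA replicate 3, so they are not independent of each other. On log2 CPM the gaps take a smaller share of the range. Cd14 was 9.68 there, 2.85 in the next mouse and 1.05 in the lowest of the group. The limit was not applied on that scale. Cd14 was 821 CPM there against 7.15 CPM in the next mouse (gap over range 0.994). Irak3 was 25.1 CPM against 2.85 CPM (0.950). Tlr2 was 20.5 CPM against 4.33 CPM (0.920). Lbp, at 545 CPM against 495 CPM in the next mouse, was not set apart.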

How the results depend on the processing

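In CLP versus sham, of the 10 genes described 5 were called and of all genes 2387 with edgeR on the 8 mice compared, 4 and 1894 with DESeq2 on all 12 mice, 5 and 3428 with DESeq2 on 8 mice, and 5 and 3453 with voom and sample weights, against 1 and 367 in the analysis reported; without a filter on low counts 122 genes were called. In CLP+DCA versus sham, the counts were 2 and 247 with DESeq2 on 12 mice, 1 (of 7, since DESeq2 gave no p for Cd14, Tlr2 and Irak3) and 169 on 8 mice, and 1 and 496 with voom; genes called were 0 with edgeR on 8 mice and 3 with library size alone. In CLP+DCA versus CLP, genes called were 0 with edgeR on 8 mice, 136 and 80 with DESeq2 on 12 and 8 mice and 1341 with voom. Leaving out each mouse gave 0 to 5 of the 10 and 10 to 3157 genes in CLP versus sham, 1 to 11 genes in CLP+DCA versus sham, and 0 to 1 of the 10 and 0 to 616 genes in CLP+DCA versus CLP; the highest counts of the 10 came without CLP+DCA replicate 3.

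Replicate numbers gave no sign of pairing the mice: correlations of same-numbered libraries were -0.46 to 0.55 (median -0.02). Of 12 libraries, 3 correlated best with their own number. Libraries with different numbers reached 0.70 (CLP replicate 2 with CLP+DCA replicate 3). With 4 mice per group, this check cannot exclude pairing. With the replicate number as a block, none of the 10 (Lbp, adjusted p = 0.0749) and 46 genes were called in CLP versus sham, 0 genes in CLP+DCA versus sham and 4 in CLP+DCA versus CLP.

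Lbp also lost its call in the exact permutation test (two-sided, adjusted p = 0.107, the smallest these 30 tests gave). Its p before adjustment was 0.0286 (exact permutation test), the smallest that 4 against 4 mice allow. No larger difference in Lbp could have lowered it, so this loss says nothing about Lbp. Among the single-gene fold changes under settings other than leaving out a mouse, 296 kept direction and call, 3 had no p, 19 passed the threshold newly, 2 lost it and 10 turned. Directions turned only for differences that were not called. In CLP versus sham, Ly96 was -0.0068 and Tlr3 -0.019 with voom. With library size alone, Ly96 was -0.091, Tlr3 -0.16 and Irak4 -0.13 in that comparison. The median of all genes was then -0.16, against 0.02 in the analysis reported. In CLP+DCA versus sham Myd88 was -0.031 with voom. In CLP+DCA versus CLP, Tlr3 was 0.015 with library size alone, and Cd14 was -2.95 with voom, -2.18 with the replicate block and -1.81 as the difference of mean log2 CPM. Leaving out each mouse gave, in CLP versus sham, -0.018 to 0.17 for Ly96, -0.043 to 0.12 for Tlr3 and -0.040 to 0.15 for Irak4; in CLP+DCA versus sham, -0.15 to 0.020 for Tlr3; and in CLP+DCA versus CLP, -4.66 to 2.13 for Cd14, -2.28 to 0.061 for Irak3, -0.034 to 0.18 for Irak4, -0.078 to 0.31 for Tlr4 and -0.015 to 0.27 for the log2 ratio of Ly96 to Tlr4. The causes were not tested. Depth limits Cd14 and Irak3 in sham (22 to 46 reads per library) and Tlr4 (39 to 127 reads).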
